A study of Mus musculus with 6 samples.

Results

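The longest genes of the mouse genome were examined in fully grown germinal vesicle (GV) oocytes, which are arrested before their first meiotic division. A gene was taken as very long when the deposited annotation placed at least 600 kb between the start of its first exon and the end of its last, and predicted genes with Gm or Rik symbols were left out. The rule uses annotation alone and no read count. It gave 143 of the 49315 genes in the files, 142 of them protein coding, and the other is Snhg14, an RNA gene.

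Very long genes are mostly intron. RNA polymerase II has to travel through the whole gene before a full transcript can be released, so their output is more sensitive to pauses, early termination and DNA damage on the way than that of short genes. Many encode adhesion proteins, receptors and channels of neurons, and several lie in common fragile sites, regions that break when DNA replication is slowed. RPA1 is the DNA-binding core of replication protein A, a complex that coats single-stranded DNA during replication, repair and recombination.

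RNA was sequenced from GV oocytes of 3 Control mice and 3 mice with an oocyte-specific conditional deletion of Rpa1 (OcKO), all 4 to 5 weeks old and primed with pregnant mare serum gonadotropin. Each library held about 20 oocytes of 1 mouse, pooled and free of cumulus cells, and the sources used here do not name the Cre driver, the floxed allele or the Control genotype. The libraries held 36280148 to 44575222 counts. Levels are counts-per-million (CPM), scaled by the trimmed mean of M-values (TMM), and the levels of single genes are also divided by exonic length. Whether a gene is expressed, and its class of expression, rest on plain CPM. In bulk RNA, fewer cells of a type and less RNA per cell cannot be told apart.

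Rpa1 was at 156, 155 and 140 CPM in Control and 7.76, 4.14 and 6.84 CPM in OcKO (a log2 fold change of -4.59, SE 0.31, adjusted p = 0.00640, edgeR), as the labels say. All 12 oocyte markers were expressed, at a summed 30665 to 49579 CPM in Control and 25093 to 31227 CPM in OcKO. Mitochondrially encoded genes took 0.0670 to 0.0807% of counts in Control and 0.155 to 0.188% in OcKO, without overlap. Among markers of neurons and glia, the cells best known for long genes, 6 of 12 were expressed, Gfap and Olig2 were at 0 counts, and the sum was 449 to 540 CPM in Control and 354 to 489 CPM in OcKO. Most of that sum was Tubb3. Granulosa and cumulus markers summed to 66.3 to 110 CPM in Control and 99.7 to 112 CPM in OcKO, with 10 of 15 expressed and Ptx3 at 0. Theca and stroma (2 of 9 expressed), immune (3 of 8) and endothelial and blood markers (3 of 9) summed to at most 13.1, 13.4 and 160 CPM in Control and 19.9, 9.11 and 238 CPM in OcKO. Muscle markers summed to 126 to 234 CPM in Control and 52.6 to 88.7 CPM in OcKO, nearly all of it Myh11. Their part in the results below was not tested.

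The 143 very long genes had a median span of 906 kb and a median exonic length of 10.1 kb, so that exons made up a median of 0.985% of the gene. Spans reached 1 Mb or more in 55 of them. The longest 5 were Fgfr2 (2960899 bp), Ptprd (2270723 bp), Dmd (2257271 bp), Cntnap2 (2244856 bp) and Lsamp (2197318 bp). The span of Fgfr2, a fibroblast growth factor receptor gene, rests on a distant exon, because a single intron covers 2815493 bp of it and RefSeq gives it a span of 104357 bp. Chd1, which encodes a chromatin remodeller, has an intron of 1601721 bp in the deposited annotation and a span of 67645 bp in RefSeq. RefSeq gave 140 of the 143 genes a span of at least 600 kb, the others being Fgfr2, Chd1 and Cdk14, and GENCODE M21 gave 141, the others being Chd1 and Arhgap26. Just inside the threshold were Mast4 (602011 bp) and Rbfox1 (603257 bp), at means of 98.9 and 1.11 CPM, and just outside it Sorcs3 (599480 bp) and Hpse2 (599364 bp), at 19.7 and 1.73 CPM.

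The genes were spread over all autosomes and the X chromosome. Chromosome 14 carried the most, 13, and the X chromosome carried 7, of which Dmd and Frmpd4 were expressed. Exonic bases were shared with another annotated gene in 45 of the 143, most in Ralyl (35.6% of its exonic length). The libraries do not mark the strand, so reads from such bases cannot be assigned to a gene with certainty.

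Promoter sequence was the feature of these genes that could be read from RefSeq. A window of 300 bases, 250 before and 50 after the outermost annotated start, was present for 113 of the 143 genes, and in 86 of them it lay within 1 kb of the deposited start. The windows are shown for an abundant fragile site gene (Macrod2), for genes of higher and lower values in OcKO (Ctnna3 and Lama2) and for a pair with no counts at all (Hs6st3 and Cadm2). These 5 were picked after their values were seen. They run 5′ to 3′ on the strand of the gene, and capitals mark each CG dinucleotide (CpG). Positions are in GRCm38.p6, at chr2:140395180-140395479 (+) for Macrod2, chr10:63429848-63430147 (+) for Ctnna3, chr10:27616893-27617192 (-) for Lama2, chr14:119138015-119138314 (+) for Hs6st3 and chr16:67620859-67621158 (-) for Cadm2.
Macrod2: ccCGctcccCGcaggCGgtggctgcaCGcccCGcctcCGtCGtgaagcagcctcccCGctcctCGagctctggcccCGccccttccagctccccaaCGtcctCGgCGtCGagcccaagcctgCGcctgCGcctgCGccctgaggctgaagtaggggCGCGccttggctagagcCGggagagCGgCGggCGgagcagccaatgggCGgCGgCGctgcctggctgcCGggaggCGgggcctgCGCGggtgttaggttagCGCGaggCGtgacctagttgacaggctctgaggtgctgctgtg
Ctnna3: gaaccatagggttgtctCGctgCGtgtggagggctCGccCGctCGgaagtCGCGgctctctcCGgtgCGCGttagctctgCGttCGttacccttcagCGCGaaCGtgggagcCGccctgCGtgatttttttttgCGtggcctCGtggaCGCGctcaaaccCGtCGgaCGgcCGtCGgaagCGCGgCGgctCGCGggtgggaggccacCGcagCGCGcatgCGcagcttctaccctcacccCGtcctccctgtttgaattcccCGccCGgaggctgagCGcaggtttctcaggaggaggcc
Lama2: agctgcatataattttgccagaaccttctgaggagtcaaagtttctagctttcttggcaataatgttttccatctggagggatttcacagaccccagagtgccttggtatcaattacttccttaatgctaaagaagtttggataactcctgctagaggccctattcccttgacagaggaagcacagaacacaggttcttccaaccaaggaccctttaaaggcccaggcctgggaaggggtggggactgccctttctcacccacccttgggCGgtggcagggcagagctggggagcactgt
Hs6st3: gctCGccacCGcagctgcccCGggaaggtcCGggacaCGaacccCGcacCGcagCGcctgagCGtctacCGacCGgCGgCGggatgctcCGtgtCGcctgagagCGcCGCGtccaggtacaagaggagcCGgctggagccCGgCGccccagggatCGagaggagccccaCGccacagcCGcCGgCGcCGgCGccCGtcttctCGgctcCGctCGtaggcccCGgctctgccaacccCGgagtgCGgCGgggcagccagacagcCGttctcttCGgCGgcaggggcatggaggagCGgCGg
Cadm2: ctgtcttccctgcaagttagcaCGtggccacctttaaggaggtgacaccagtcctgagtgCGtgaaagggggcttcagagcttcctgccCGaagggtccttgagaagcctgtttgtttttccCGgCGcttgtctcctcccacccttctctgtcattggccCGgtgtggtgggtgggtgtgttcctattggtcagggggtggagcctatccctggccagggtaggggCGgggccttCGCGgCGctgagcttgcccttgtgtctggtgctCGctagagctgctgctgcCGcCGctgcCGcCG

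Those windows held 33 CG dinucleotides for Macrod2, 39 for Ctnna3, 1 for Lama2, 41 for Hs6st3 and 15 for Cadm2. The Lama2 window begins from a start 2816 bases away from the deposited one, so it may not be the start used here. A window rich in CG was thus present both in genes with abundant RNA in these oocytes and in Hs6st3, which gave no count. Over all very long genes with a window, the median was 14 CG in the 86 expressed and 13 in the 27 not expressed. Named genes under 100 kb differed more, with a median of 20 in 8111 expressed genes and 4 in 6089 not expressed genes, and the median of all 27025 RefSeq windows was 7. At least 15 CG were found in 48.8% of expressed and 44.4% of not expressed very long genes, against 69.2% and 21.8% of shorter genes and 35.2% of all windows. The motif TATAAA, searched on both strands, stood in 10.5% of windows of expressed and 18.5% of not expressed very long genes, against 14.2% of all windows. These values include the windows more than 1 kb from the deposited start, which may not be the starts used here. Most of those were in expressed genes and held under 15 CG, as in Fgfr2 (4 CG, 2856542 bases away) and Sox5 (3 CG, 834871 bases away). Cdk14 was an exception, with 53 CG at 40061 bases. The small difference in CG number describes these windows only, and those near the deposited start were not compared apart.

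Most very long genes were expressed. At least 1 count was found for 139 of the 143, and Cadm2, Fgf14, Hs6st3 and Il1rapl2 had none in any library. A mean of at least 1 CPM over the 6 libraries, the level taken as expressed here, was reached by 110 genes, or 76.9%. This share was close to that of named genes of 100 to 300 kb (76.4%) and 300 to 600 kb (75.2%), and above that of genes under 10 kb (26.3%). The cut at 1 CPM is not scaled by length. Expressed genes under 10 kb had a median of 2.13 kb of exon, and the very long ones 10.3 kb. Other classes of span were not limited to protein-coding genes, and their shares at 1 CPM per kb are not given. Of the 110, 50 lay at 1 to 10 CPM, 54 at 10 to 100 CPM and 6 at 100 CPM or more. A level of 1 CPM per kb of exon was reached by 65 genes. The 33 that were not expressed include the synaptic adhesion genes Il1rapl1 and Lrrtm4 and the channel genes Cacna1c, Trpm3 and Asic2. Together the 143 genes took 0.336% ± 0.0304 (SD, n = 3) of all counts in Control and 0.298% ± 0.0312 (SD, n = 3) in OcKO.

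Per length, the median of the expressed very long genes was 1.55 CPM per kb of exon, against 4.87 over all 13906 expressed genes. Both sets were cut at 1 CPM before this division, so genes with long exons enter at lower values per kb. The 13906 also include predicted genes. The highest was Pcdh9, a protocadherin gene of cell adhesion, at 23.9 CPM per kb. Macrod2, which encodes a hydrolase of ADP-ribose marks, followed at 15.8, and Adamtsl1, an extracellular matrix gene, at 15.3. Camta1, a calmodulin-binding transcription activator, was at 9.54, Ptprg, a receptor tyrosine phosphatase, at 8.15, Fgfr2 at 8.14, Ctnna3, an alpha catenin of cell junctions, at 7.83 and Magi1, a junction scaffold, at 7.49 CPM per kb. Nav2, a neuron navigator protein of the cytoskeleton, Cacna2d3, a calcium channel subunit, Lama2, a laminin chain of basement membranes, and Exoc4, an exocyst subunit, completed the 12 highest at 6.45, 6.30, 5.80 and 5.65 CPM per kb. The range over libraries of each of the 12 overlapped that of its neighbour in this order.

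**Figure D1:**
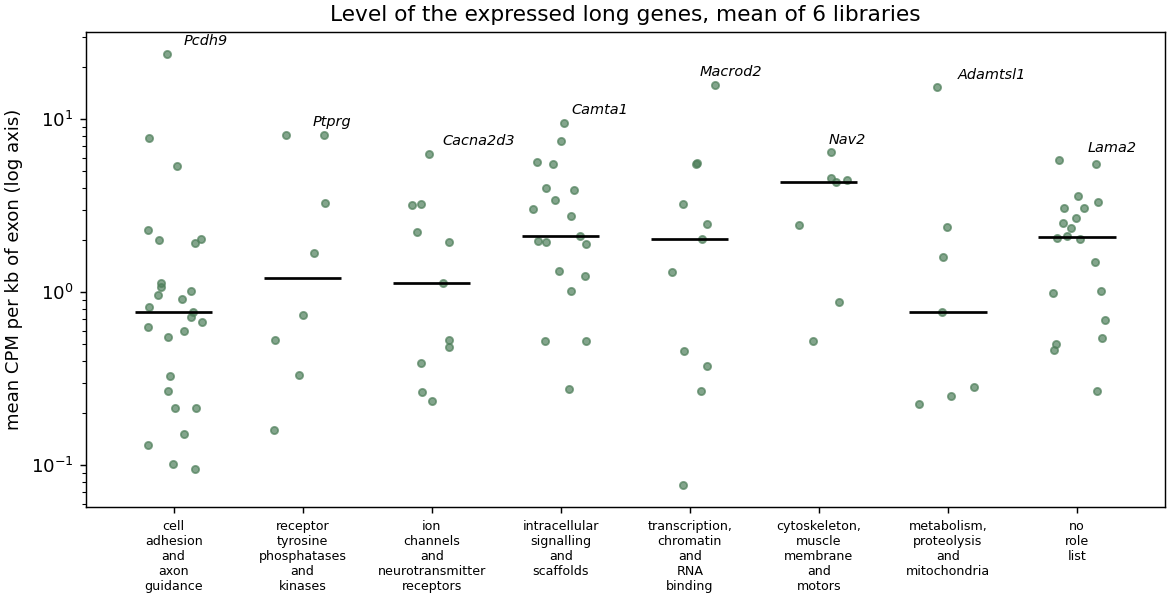
Level of each of the 110 expressed very long genes, as the mean CPM per kb of exon over 6 libraries on a log axis, grouped by role list. Each point is a gene and each bar the median of its group, from 0.767 for cell adhesion to 4.31 for the cytoskeleton, and the highest gene of each group is named.

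The role lists are broad, with some placements open to dispute: the signalling list holds the transcription activator Camta1, the receptor Lrp1b and the mitochondrial protease Immp2l. By list, the cytoskeletal and muscle membrane genes had the highest median level, 4.31 CPM per kb over 7 expressed of 9. Signalling and scaffold genes were at 2.13 (19 of 25) and genes of transcription, chromatin and RNA binding at 2.03 (11 of 12). Receptor tyrosine phosphatases and kinases were at 1.21 (8 of 9) and ion channels and neurotransmitter receptors at 1.13 (11 of 13). Cell adhesion and axon guidance, with 40 genes, was the largest group and had a low median of 0.767, although 27 were expressed and Pcdh9 led the whole set. Metabolic and proteolytic genes were at 0.770 (7 of 11). The 24 genes in none of these lists had a median of 2.09 over 20 expressed.

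Comparing OcKO with Control, none of the very long genes was called by the quasi-likelihood test of edgeR at an adjusted p under 0.05, among the 118 that passed the filter on low counts. Over all 16060 genes tested, 0.137% were called higher and 0.00623% lower. The lowest adjusted p was 0.120, for Sntg1, and among expressed members 0.169, for Lama2. At an unadjusted p under 0.05 there were 3 higher and 8 lower of the 118, against 5.93% and 5.21% of all genes tested. Of the higher ones, Sntg1 (0 counts in Control, 114 in OcKO) and Ctnnd2 (8 and 176) passed the filter through OcKO alone. Their direction was thus set by the filter, and both have means under 1 CPM. The libraries did not overlap in 6 with higher values, Sntg1 and Ctnnd2 included, and 17 with lower values, against 10.7% and 8.67% of all genes tested. DESeq2 called 1 higher (Ctnna3) and 4 lower (Mast4, Lama2, Arhgap26 and Nav3), or 0.847% and 3.39%, against its background of 2.97% and 1.69%, and limma voom called none. Of the 118, 10 were under a mean of 1 CPM, so the following values are for the 108 that were expressed and tested. Sox5 and Tenm2 were expressed and failed the filter.

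Among these 108 genes, 1 was higher and 8 were lower in OcKO at an unadjusted p under 0.05, against 5.65% and 5.97% of all expressed genes. The libraries of the groups did not overlap in 4 with higher values (3.70%) and 17 with lower values (15.7%), against 10.3% and 9.41% of all expressed genes. The shares were 6.93% and 16.3% in expressed named genes of 100 to 300 kb, and 3.36% and 19.5% at 300 to 600 kb. Of the higher ones, Opcml, Cntnap5a and Lrmda passed the filter through OcKO alone. Of the lower ones, Gpc5, Frmpd4 and Adgrl3 passed it through Control alone. These counts are no calls, since no adjusted p of edgeR passed.

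Lama2, on chromosome 10 from 26980036 to 27619758, stood at 144, 105 and 127 CPM in Control and 75.6, 69.4 and 47.6 CPM in OcKO. Every OcKO library was below every Control library. The log2 fold change was -0.96 (SE 0.24, adjusted p = 0.169, edgeR). Mast4, which encodes a microtubule-associated kinase, was at 123, 172 and 142 CPM in Control and 24.8, 75.1 and 56.9 CPM in OcKO, again without overlap (log2 fold change -1.48, SE 0.39, adjusted p = 0.193). Its span of 602011 bp is among the shortest of the set, and 5.37% of it is exon. Arhgap26, which encodes a GTPase-activating protein, was at 150, 136 and 97.5 CPM in Control and 51.8, 84.9 and 49.7 CPM in OcKO. Its groups did not overlap either (log2 fold change -1.04, SE 0.29, adjusted p = 0.209), and it was named after its values were seen. Nav3, a neuron navigator like Nav2, was at 107, 65.2 and 81.9 CPM in Control and 41.2, 44.3 and 17.5 CPM in OcKO. No library of one group reached the other (log2 fold change -1.30, SE 0.39, adjusted p = 0.249). DESeq2 gave adjusted p-values of 0.0144 for Lama2, 0.00641 for Mast4, 0.0208 for Arhgap26 and 0.0301 for Nav3.

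Nav2 differed from Nav3 in its values. It was at 215, 219 and 191 CPM in Control and 195, 175 and 251 CPM in OcKO, with the groups overlapping, and the difference between these paralogs was not tested. The other 4 genes with lower values at an unadjusted p under 0.05 were Magi1, Celf2, Ptprg and Auts2. Magi1 was at 112, 126 and 76.1 CPM in Control and 65.2, 35.7 and 61.2 CPM in OcKO (a log2 fold change of -0.95, SE 0.31, adjusted p = 0.286). Celf2, an RNA-binding regulator of splicing, was at 70.6, 54.2 and 96.4 CPM in Control and 46.2, 30.5 and 17.5 CPM in OcKO (a log2 fold change of -1.23, SE 0.40, adjusted p = 0.287). In both, the groups were separate, and Celf2 shares 1961 exonic bases with another gene. Ptprg was at 97.9, 142 and 87.2 CPM in Control and 80.9, 62.7 and 63.5 CPM in OcKO (a log2 fold change of -0.66, SE 0.25, adjusted p = 0.372). Auts2, a chromatin-linked regulator of transcription, was at 159, 148 and 127 CPM in Control and 108, 110 and 104 CPM in OcKO (a log2 fold change of -0.43, SE 0.17, adjusted p = 0.415). These differences were smaller than those of Mast4 and Nav3, and the OcKO libraries of Auts2 lay within a narrow range.

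The single gene with higher values at an unadjusted p under 0.05 among expressed members was Ctnna3, on chromosome 10 from 63430098 to 65003667. It was at 41.2, 38.4 and 45.5 CPM in Control and 85.2, 69.6 and 59.8 CPM in OcKO. All OcKO libraries were above all Control libraries (log2 fold change 0.78, SE 0.23, adjusted p = 0.242, and 0.0393 by DESeq2). Its exons make up 0.459% of 1573569 bp, so the gene of the set with this pattern is far longer than Lama2 or Mast4.

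**Figure D2:**
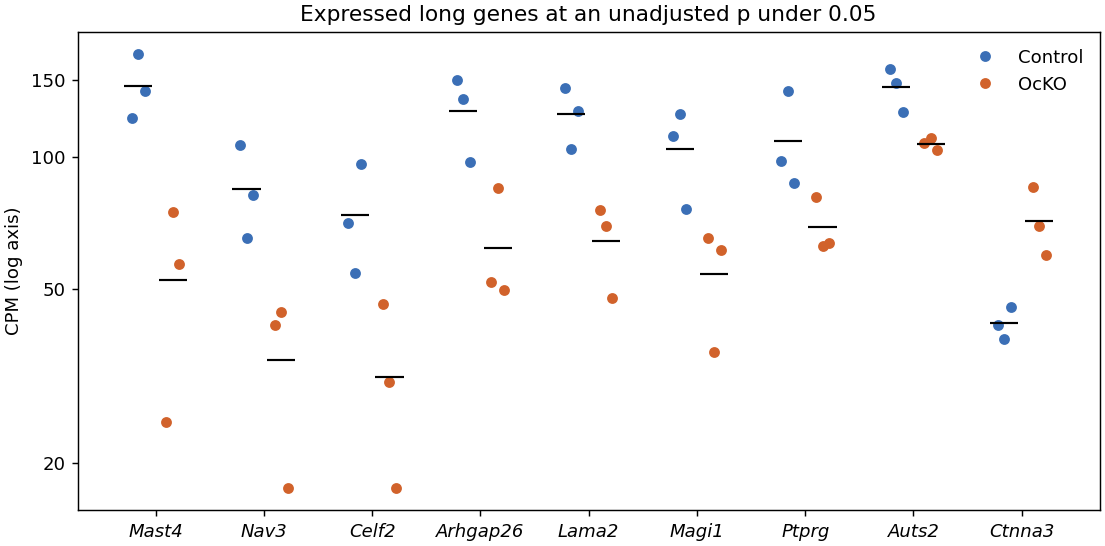
CPM per library on a log axis for the 9 expressed very long genes at an unadjusted p under 0.05. Points are libraries (blue Control, orange OcKO, 3 each) and bars are means. Points of the groups do not overlap in any of the 9, Ctnna3 is higher in OcKO and the other 8 are lower.

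Among the 12 highest per length, Lama2, Magi1, Ptprg and Ctnna3 were separate between groups, as given above. Others of the 12 had smaller differences, with groups that overlapped. Pcdh9 was at 140, 112 and 157 CPM in Control and 153, 208 and 201 CPM in OcKO, with overlap (log2 fold change 0.46, SE 0.21, adjusted p = 0.490). Macrod2 was at 217, 168 and 151 CPM in Control and 127, 197 and 117 CPM in OcKO, also with overlap (log2 fold change -0.28, SE 0.26, adjusted p = 0.779). Adamtsl1 was at 256, 176 and 235 CPM in Control and 199, 131 and 176 CPM in OcKO (a log2 fold change of -0.40, SE 0.23, adjusted p = 0.607). The ranges of its groups crossed too. Camta1 overlapped between groups as well, at 192, 165 and 127 CPM in Control and 105, 144 and 102 CPM in OcKO (a log2 fold change of -0.46, SE 0.23, adjusted p = 0.535). Exoc4 was at 62.1, 56.7 and 73.8 CPM in Control and 85.0, 91.6 and 59.1 CPM in OcKO (a log2 fold change of 0.29, SE 0.24, adjusted p = 0.747). Cacna2d3 was at 24.3, 26.9 and 22.6 CPM in Control and 26.9, 27.1 and 11.9 CPM in OcKO, so that only OcKO library 3 was apart (log2 fold change -0.16, SE 0.39, adjusted p = 0.933).

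The largest fitted differences belonged to genes of low level. Gpc5, a glypican of the cell surface, was at 4.52, 10.2 and 11.1 CPM in Control and 0, 3.52 and 0.886 CPM in OcKO (a log2 fold change of -2.55, SE 1.55, adjusted p = 0.633). Cdh18, a cadherin, had a log2 fold change of -2.48 (SE 1.11), Frmpd4, a synaptic scaffold gene on the X chromosome, -2.13 (SE 1.51) and Adgrl3, a latrophilin receptor, -1.98 (SE 1.53). Their means over 6 libraries were only 2.89, 4.34 and 2.32 CPM. Dlg2, a synaptic scaffold, was at 23.6, 20.8 and 16.7 CPM in Control and 10.8, 8.25 and 0.345 CPM in OcKO (a log2 fold change of -1.65, SE 0.98, adjusted p = 0.624). In the other direction stood Opcml, an adhesion protein anchored in the membrane (3.55, SE 1.99), Cntnap5a, a contactin-associated protein (3.33, SE 2.02), and Lrmda (2.58, SE 1.64). Opcml was at 0, 0 and 0.691 CPM in Control and 0.708, 2.64 and 4.80 CPM in OcKO, so the nearest libraries of the groups were almost level. Opcml and Cntnap5a had counts in Control library 3 but in no other Control library, with Control means of 0.230 and 0.528 CPM. They and Lrmda passed the filter on low counts through OcKO alone, and Gpc5, Frmpd4 and Adgrl3 through Control alone. The filter thus favoured the directions of these genes. The standard errors of these genes were several times those of the abundant ones.

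Sntg1, a syntrophin gene of the membrane scaffold, had no Control count and 1.10, 0.352 and 1.23 CPM in OcKO, at least 31.9-fold higher against a floor of 3 counts over the group. It passed the filter on low counts through OcKO alone, and its mean of 0.446 CPM is below the level taken as expressed. Of the 50 genes at 1 to 10 CPM, 7 had more CPM in a single library than in the other 5 together (Galnt13, Sox5, Grik2, Cdh13, Lrmda, Opcml and Tenm2), or 14.0%, against 15.7% of shorter genes at that level.

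As a set, the log2 fold changes of the 108 genes had their median at -0.40 (quartiles -0.90 and 0.18), and 73 of them (67.6%) had lower values in OcKO. The median of 10108 expressed named genes under 100 kb was 0.04, with 47.4% negative, and that of all 16060 genes tested was 0.01. Over classes of span the median was lower in each longer class, from 0.12 under 10 kb to 0.09, -0.08, -0.23, -0.36 and -0.40 at 600 kb and more. The genes of 300 to 600 kb (n = 298) were thus close to the very long ones. Within the very long genes the log2 fold change had no gradient with span (Spearman's correlation 0.03 across genes), exonic length (-0.05) or level (-0.01). Across all 11928 expressed named genes it was -0.17 with span and -0.13 with exonic length. Genes share libraries and are not independent replicates, so these are descriptions.

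**Figure D3:**
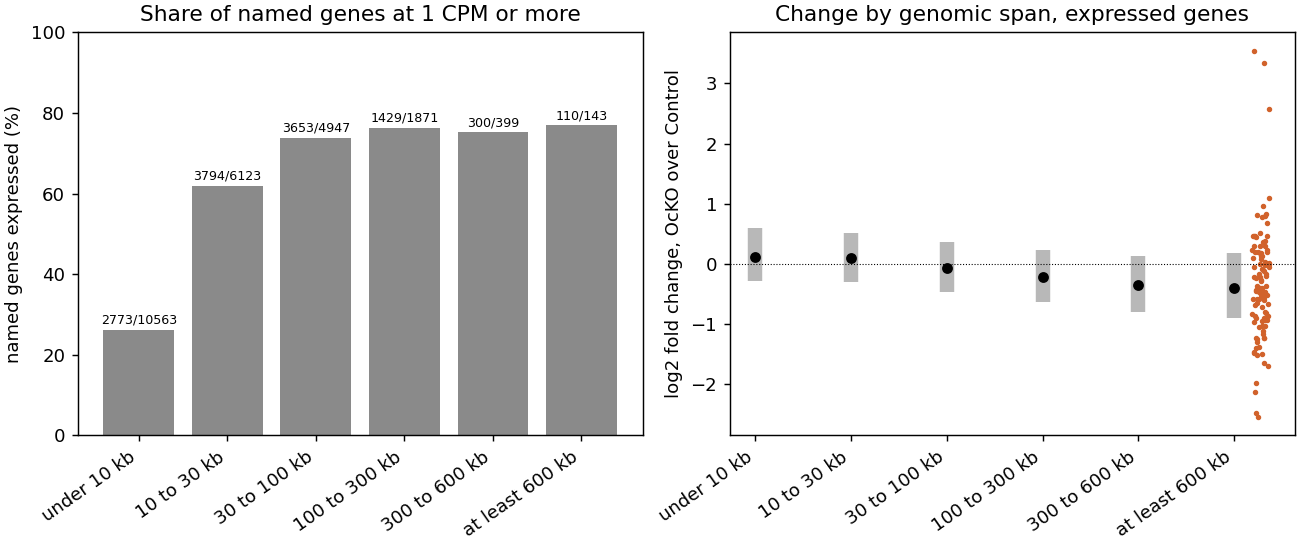
Left, the percentage of named genes that reached a mean of 1 CPM, by genomic span, with counts above the bars. Right, the log2 fold change (OcKO over Control) of expressed and tested genes by span, with black points for medians, grey bars for quartiles and orange points for the 108 very long genes. The share levels off near 76.9% and the median runs from 0.12 in the shortest class to -0.40 in the longest.

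Genes of like expression were compared next. At 1 to 10 CPM the median was -0.31 in 48 very long genes and 0.27 in 3407 genes under 100 kb. At 10 to 100 CPM it was -0.40 in 54 very long genes and 0.04 in 4737 shorter genes. At 100 CPM or more it was -0.34 in 6 very long genes and -0.10 in 1964 shorter genes. The very long genes were lower than those under 100 kb in each class, least so in the most abundant one. Genes of 100 to 300 kb had medians of 0.09, -0.27 and -0.38 in these classes, and genes of 300 to 600 kb -0.08, -0.36 and -0.49. At 100 CPM or more the very long genes were thus above both. At 10 to 100 CPM they were close to the genes of 300 to 600 kb.

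Exonic length differed as well. The expressed very long genes had a median of 10.3 kb of exon, and shorter expressed genes 3.74 kb. With exons under 4 kb the medians were -0.43 in 8 very long genes and 0.09 in genes under 100 kb, and with 4 to 8 kb they were -0.16 in 28 and 0.0003. With 8 to 16 kb they were -0.38 in 50 and -0.09, and with at least 16 kb -0.41 in 22 and -0.21 in 64. In genes matched on both, at 10 to 100 CPM with 8 to 16 kb of exon, the medians were -0.28 in 29 very long genes and -0.09 in 523 shorter genes. At the same level with 4 to 8 kb they were -0.52 in 11 and 0.01 in 1799, and with at least 16 kb -0.86 in 13 and -0.12 in 33. The difference of -0.44 over all genes was thus -0.53, -0.19 and -0.74 in these 3 matched classes from short to long exons. Very long genes were lower than genes under 100 kb in each. In the same classes genes of 100 to 300 kb were at -0.24, -0.34 and -0.30, and genes of 300 to 600 kb at -0.42, -0.33 and -0.36. With 8 to 16 kb of exon the very long genes were above both, and in the other classes below both.

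The difference was then read in each library, as the median over the very long genes of their deviation from their own mean log2(CPM + 0.5), less the same for genes under 100 kb. It was 0.32, 0.23 and 0.06 in Control and -0.23, 0.17 and -0.34 in OcKO, or 0.20 ± 0.13 (SD, n = 3) and -0.13 ± 0.27 (SD, n = 3). OcKO library 2 lay within the range of Control, so the groups overlapped. Without that library 81 of the 108 genes had negative values, and the median was -0.44. Leaving out another library gave 66 to 71 negative values and medians of -0.38 to -0.28, the latter without OcKO library 3 (-0.28) or Control library 1 (-0.28). Among genes under 100 kb, the same measure for long exons less short exons was 0.21, 0.07 and 0.07 in Control and 0.05, -0.04 and -0.25 in OcKO. That measure did not overlap between groups, and its part in the values of the very long genes was not tested.

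**Figure D4:**
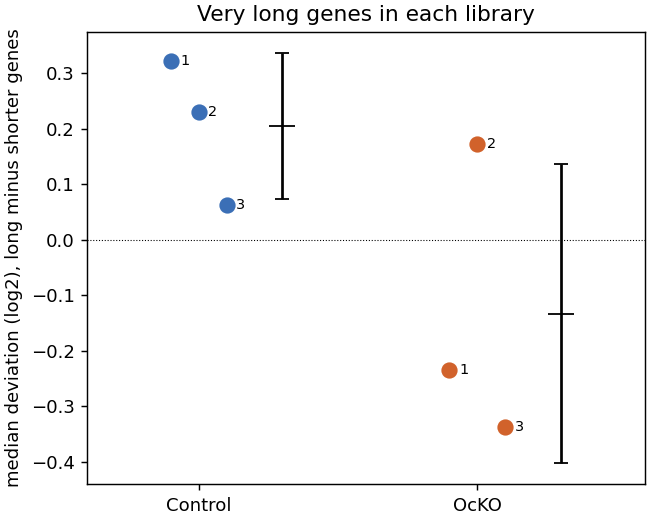
Median deviation of the very long genes less that of named genes under 100 kb, in log2 units, for each library. Numbers are replicates, and bars to the right are the mean and SD of 3 libraries. Control libraries lie from 0.06 to 0.32 and OcKO libraries from -0.34 to 0.17, with OcKO library 2 inside the Control range.

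The role groups had unequal balances, given here as counts over expressed and tested genes. Of 26 adhesion and guidance genes, 10 had higher and 16 lower values (median -0.46). This group held both the most negative (Gpc5) and the most positive (Opcml) of the expressed and tested genes. Gpc5 passed the filter on low counts through Control alone, and Opcml through OcKO alone. Cytoskeletal genes had 1 higher and 6 lower (-0.36), metabolic and proteolytic genes 1 and 6 (-0.59), and transcription and RNA-binding genes 3 and 7 (-0.49). Signalling and scaffold genes had 7 higher and 12 lower (-0.28). Ion channels and neurotransmitter receptors had 6 and 5 (0.02), and receptor phosphatases and kinases 3 and 5 (-0.04). Genes in no list had 4 and 16 (-0.44). edgeR called no gene of any group, and the genes called by DESeq2 were Ctnna3 (adhesion), Nav3 (cytoskeleton), Arhgap26 (signalling), and Lama2 and Mast4 (no list). For comparison, the median of all 13726 expressed genes tested was -0.01.

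Among channels, the gene with the smallest p was Grid1, of the glutamate receptor family. Grid1 was at 5.29, 10.1 and 14.5 CPM in Control and 4.18, 3.70 and 3.47 CPM in OcKO, without overlap (log2 fold change -1.39, SE 0.60, adjusted p = 0.449).

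The longest genes gave no common direction. Dmd, which encodes the muscle membrane protein dystrophin, was at 15.4, 5.14 and 15.7 CPM in Control and 5.82, 20.4 and 12.3 CPM in OcKO, and replicates differed more than groups (log2 fold change 0.09, SE 0.63). Ptprd, a receptor phosphatase, was at 11.1, 6.41 and 7.09 CPM in Control and 5.76, 9.22 and 5.98 CPM in OcKO (-0.23, SE 0.54). Cntnap2, a contactin-associated protein of axons, was at 11.5, 16.7 and 9.91 CPM in Control and 11.2, 5.46 and 4.70 CPM in OcKO (-0.84, SE 0.54). Both overlapped between groups. Lsamp, an adhesion protein of the limbic system, was at 2.34, 2.85 and 0 CPM in Control and 0, 1.98 and 2.63 CPM in OcKO (-0.17, SE 2.04). Fgfr2 was at 112, 55.5 and 85.3 CPM in Control and 64.8, 95.1 and 91.9 CPM in OcKO, nearly level between groups (-0.0045, SE 0.30). Chd1 was at 32.5, 18.4 and 39.7 CPM in Control and 43.0, 47.2 and 38.5 CPM in OcKO (0.51, SE 0.33). Leaving out Fgfr2 and Chd1, whose spans rest on a distant exon, left the difference from shorter genes at -0.44. The signs of Dmd, Ptprd, Lsamp and Fgfr2 turned when single libraries were left out.

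Of the common fragile site genes listed, 28 were very long and 25 of these were expressed and tested. Values were higher in 8 and lower in 17 (median log2 fold change -0.43), close to the balance of all 108. At an unadjusted p under 0.05 there were 1 higher (Ctnna3) and 2 lower (Ptprg and Auts2), near the 5.65% and 5.97% of all expressed genes. The tumour suppressor gene Wwox was at 27.6, 31.1 and 32.0 CPM in Control and 28.6, 15.1 and 16.6 CPM in OcKO (-0.59, SE 0.34, adjusted p = 0.609), and OcKO library 1 lay within Control. Fhit, a gene at a well-known fragile site, was low throughout, at 0.414, 4.88 and 3.00 CPM in Control and 2.01, 1.52 and 2.51 CPM in OcKO. Its exons are 0.0925% of its 1611943 bp, and the groups overlapped. Lrp1b, a lipoprotein receptor, was at 35.8, 43.4 and 43.5 CPM in Control and 44.4, 88.0 and 27.8 CPM in OcKO, where OcKO library 2 stood apart (0.38, SE 0.42). Rora, a nuclear receptor, was at 42.4, 60.4 and 47.2 CPM in Control and 20.3, 57.5 and 24.6 CPM in OcKO (-0.55, SE 0.43). There OcKO library 2 lay within Control, and libraries 1 and 3 lay below it. The fragile site genes Magi2 (-0.91, SE 0.49), Sdk1 (-0.93, SE 0.73), Park2 (-0.89, SE 0.66), Pde4d (-1.23, SE 0.90) and Cdh13 (-1.11, SE 1.72) had lower values, and Dab1 (0.19, SE 0.29), Immp2l (0.19, SE 0.75) and Dcc (0.82, SE 2.05) higher ones, none with a gap between groups. Naaladl2 (-0.59, SE 1.2), Csmd1 (-0.23, SE 0.72) and Ccser1 (-0.05, SE 0.40) also overlapped. Leaving out single libraries turned the sign of Lrp1b (-0.15 without OcKO library 2), Cdh13 (1.65 without Control library 2), Fhit, Immp2l, Naaladl2, Csmd1 and Ccser1. The 6 listed fragile site genes outside the set had 2 higher and 3 lower of 5 tested (median -0.02).

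Genes whose products help polymerase through long genes (among them topoisomerases and elongation factors) were listed as the pathway. All 46 were expressed, none was called by edgeR, and 22 had higher and 24 lower values (median -0.06). At an unadjusted p under 0.05 there were 5 higher (Cdk9, Ddx5, Supt4a, Polr2a and Ell2) and 4 lower, among them Supt6, against 5.65% and 5.97% of all expressed genes. DESeq2 called 1 higher (Cdk9) and 4 lower of the 46, Supt6 included, against its 2.97% and 1.69% of all genes tested. Supt6, an elongation factor that travels with polymerase, was at 389, 333 and 294 CPM in Control and 238, 191 and 190 CPM in OcKO, without overlap (-0.72, SE 0.19, adjusted p = 0.187). Polr2a, the largest subunit of RNA polymerase II, was at 24.9, 29.4 and 26.2 CPM in Control and 67.2, 29.4 and 56.4 CPM in OcKO, with OcKO library 2 level with Control library 2 (0.93, SE 0.34, adjusted p = 0.369). Top1 and Top2b, topoisomerases known for their role in long genes, overlapped between groups, at log2 fold changes of -0.19 (SE 0.21) and 0.10 (SE 0.72).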

How the data were processed

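The values deposited by the authors are raw read counts for each gene, whole and not normalized. The submitters' processing notes name Trimmomatic 0.36, STAR 2.5.2b, featureCounts from Subread 1.5.2 and the build GRCm38. Which gene annotation was used, and how strand and reads with several matches were handled, is not given in the sources used here, while the library kit does not mark strand. The deposited files list exons per gene, so a level here counts exonic reads.

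The quasi-likelihood test of edgeR 4.0.16 (R 4.3.3) was run on all genes with TMM scaling and filterByExpr, with Benjamini-Hochberg adjustment over 16060 genes and a threshold of 0.05. Each SE was taken from the fold change and the F statistic. DESeq2 1.42.0, limma voom 3.58.1, other scalings, filters, span limits and leaving out each library were alternatives, and the script was tested on simulated data. Each library is 1 mouse, so p-values measure the spread between these mice and pools. The members and lists were chosen with earlier results of these data known. Genes named are the 12 highest per length, up to 6 with the largest differences on each side without overlap at 1 CPM or more, the 5 longest, those nearest the threshold, the highest level and the lowest p in each role list, and expressed fragile site genes. Some genes that the rule picks are left out and not reported here. Promoter windows come from RefSeq. Counts of 0 and the floor of 3 counts cover counting error only.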

Additional observations from a re-analysis of the deposited data

How the results depend on the processing

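No very long gene was called under any edgeR or limma voom alternative. DESeq2 gave 1 higher (Ctnna3) and 4 lower (Lama2, Mast4, Nav3 and Arhgap26). At an unadjusted p under 0.05 the higher count of 3 was 5 with library size alone and with limma voom, 1 with a mean of at least 5 CPM, 6 with no filter beyond 1 count, and 2 to 7 when 1 library was left out (6 without Control library 1, 7 without Control library 3 and 5 without OcKO library 1). The lower count of 8 was 15 with limma voom, 13 without OcKO replicate 2, and 7 to 13 when 1 library was left out. Limits of 500 kb and 800 kb gave 218 and 91 members, and 71 expressed at the latter, while 65 reached 1 CPM per kb. The median of -0.40 of the expressed members was -0.23 at 800 kb and -0.22 with library size alone, where genes under 100 kb were at 0.21. The difference from shorter genes, -0.44, was -0.17 against genes of 100 to 300 kb. Within classes of exonic length and level, which were chosen after seeing the data, it was -0.52 (under 4 kb), -0.16 (4 to 8 kb), -0.29 (8 to 16 kb) and -0.21 (at least 16 kb), and at 10 to 100 CPM -0.53 (4 to 8 kb), -0.19 (8 to 16 kb) and -0.74 (at least 16 kb). It ran from -0.50 to -0.31 with 1 library left out. The cause of these shifts was not tested. Library size alone raised the median of all genes by 0.17, and no filter beyond 1 count by 0.14.

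Same-numbered libraries did not deviate together (r -0.037, -0.045 and -0.045), so numbers were not taken as pairs. With the replicate block the expressed very long genes had a median of -0.31, the difference from shorter genes was -0.36, and 0 genes of any length were called against 23 without the block.

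The sign of single named genes with small differences turned with DESeq2 for Fgfr2 (0.0137) and Nav2 (0.0108). It turned with DESeq2 size factors for Fgfr2 (0.0137) and Nav2 (0.0109). It turned with library size alone for Fgfr2 (0.16) and Nav2 (0.17) and Lsamp (0.0323) and Ccser1 (0.11). It turned with limma voom for Fgfr2 (0.037) and Cdh13 (1.70) and Fhit (0.084). It turned with a mean of at least 5 CPM for Fgfr2 (0.0301) and Nav2 (0.0237). It turned with the replicate block for Fgfr2 (0.0343) and Cdh13 (1.16) and Fhit (0.046). With 1 library left out at a time, the sign turned for Fgfr2 (-0.21 to 0.25), Nav2 (-0.17 to 0.13), Cacna2d3 (-0.34 to 0.13), Ptprd (-0.44 to 0.0443), Dmd (-0.37 to 0.43), Lsamp (-0.80 to 0.42), Lrp1b (-0.15 to 0.69), Naaladl2 (-1.69 to 0.0189), Ccser1 (-0.44 to 0.15), Csmd1 (-0.58 to 0.45), Cdh13 (-1.71 to 1.65), Fhit (-0.97 to 0.27), Immp2l (-0.0869 to 0.56).
Precision was lowest at low level: the standard error was above 1 log2 unit in 24 of 48 expressed members under 10 CPM and in 2 of 60 at 10 CPM or more (medians 1.00 and 0.39). How much of it is depth and how much spread between mice was not tested.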
